A study of Mus musculus with 24 samples.

Results

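The 10 guanylate-binding protein (Gbp) genes Gbp2 to Gbp11 were followed in mouse splenic CD4+ T cells at 0, 3, 6 and 24 h of stimulation through the T cell receptor. They were found by symbol among 54446 Ensembl gene identifiers, and all 10 passed the filter on low counts that kept 15325 genes. The family was chosen by a result of these same libraries, the rise of Gbp11 in Aim2-/- cells at 3 h, so the values of Aim2-/- cells at 3 h against 0 h are given as a description with no test. The Aim2-/- comparisons at 6 and 24 h share the 0 h libraries of that one. The genotype by stimulation interaction at 3 h contains it, and the interactions at 6 and 24 h share its 0 h libraries. The comparisons between genotypes at 0 h and at 3 h also use its libraries. Cells came from 3 mice labelled WT (numbers 1, 3 and 4) and 3 mice labelled Aim2-/- (numbers 1, 2 and 4), all on the C57BL/6 background, so each of the 8 groups of genotype and time held 1 library from each of 3 mice. Per the general methods of the study, whose own RNA sequencing figures are of naive T cells and Treg differentiation and not of these libraries, the Aim2-/- line came from a commercial supplier, the animals were sex- and age-matched and cohoused, and CD4+ T cells were enriched by removing the other splenocytes with antibodies and magnets. The age of the mice is not given in the sources used here. All groups except 0 h received antibodies to CD3 and CD28 as a stand-in for antigen and co-stimulation.

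Guanylate-binding proteins are large dynamin-like GTPases that interferons, above all interferon-gamma, induce, in part through the transcription factor IRF1. They gather on the vacuoles and membranes of intracellular pathogens and help to break them open. In macrophages infected with Francisella, Gbp2 and Gbp5 take part in the release of bacterial DNA that the cytosolic sensor AIM2, the protein missing in the Aim2-/- mice, detects. In T cells the genes are known mainly as part of the interferon response, and activated T cells are themselves a source of interferon-gamma.

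Library totals ran from 19715161 to 21627018 counts, at which 3 counts equal 0.129 to 0.155 CPM (read counts per 1000000 counts, scaled here with TMM factors), and a member's level in a library rested on 15 counts (Gbp10) to 50291 counts (Gbp2). The targeted gene went against 1 label. In the mouse labelled WT 1 Aim2 measured 21.5, 17.0, 11.5 and 5.57 CPM at 0, 3, 6 and 24 h, while at 0 h WT 3 and WT 4 measured 75.0 and 67.5 CPM and the Aim2-/- mice 15.7 to 20.1 CPM. The level in the mouse labelled WT 1 was thus near that of the Aim2-/- mice. Counts per gene do not show which exons were read, and where leaving this mouse out changes a call between genotypes, of a member or of a gene in the lists below, the value without it is given as well. The 6 CD4+ T cell markers Cd3d, Cd3e, Cd3g, Cd4, Trac and Lck were above 0 in all 24 libraries and summed to 2758 to 4256 CPM.

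In the GENCODE annotation of GRCm38, the members lie in 2 clusters. Gbp5, Gbp7, Gbp3 and Gbp2 lie in this order on the plus strand of chromosome 3, over 144 kb at chr3:142493978-142638008. Gbp8, Gbp9, Gbp4, Gbp10, Gbp6 and Gbp11 lie on the minus strand of chromosome 5, over 332 kb at chr5:105014150-105346472. Gbp11 (ENSMUSG00000092021, chr5:105323042-105346472) is annotated as a polymorphic pseudogene and the other 9 as protein coding. The copies are close enough in sequence to blur their counts: of all 51-base stretches of its transcripts, Gbp10 shared 72.89% with Gbp6 and only 16.2% were found in no other gene, against 29.5% for Gbp6. The shares found in no other gene were 81.4% for Gbp11, 82.5% for Gbp8, 87.4% for Gbp7 and 92.3% to 98.6% for Gbp2, Gbp3, Gbp4, Gbp5 and Gbp9. How reads with several matches, and the strand of a read, were treated in the counting is not given in the sources used here, so the values of Gbp6 and Gbp10 are uncertain and may hold reads of each other. On the same strand Gbp10 and Gbp6 share 1792 and 1726 exonic bases with the gene model Gm43302, and Gbp7 shares 637 with Gm43802. Both gene models were at 0 counts in all 24 libraries. Gbp4, Gbp8 and Gbp9 share 60 to 61 exonic bases. Gbp2 overlaps the antisense microRNA gene Mir6381 by 24 exonic bases.

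The promoters of the chromosome 3 members are shown because the RefSeq table held windows for these 4 members and because interferon-responsive motifs are known from the promoters of interferon-induced genes. The windows are the RefSeq sequence of GRCm38.p6 before each annotated RefSeq start (5′ to 3′, plus strand). Gbp5 and Gbp2 are printed only to 20 bases into the first GENCODE exon that starts inside the window. For Gbp2 that exon opens the GENCODE gene, while the Gbp5 window lies inside its GENCODE gene, which starts at chr3:142493978. Capitals mark matches, on either strand, to the gamma-activated site (GAS, TTCNNNGAA) and to the interferon-stimulated response element (ISRE, GAAANNGAAA, which reads TTTCNNTTTC on the other strand). The windows are chr3:142496684-142496919 for Gbp5, chr3:142530086-142530335 for Gbp7, chr3:142559794-142560043 for Gbp3 and chr3:142620413-142620621 for Gbp2.
Gbp5: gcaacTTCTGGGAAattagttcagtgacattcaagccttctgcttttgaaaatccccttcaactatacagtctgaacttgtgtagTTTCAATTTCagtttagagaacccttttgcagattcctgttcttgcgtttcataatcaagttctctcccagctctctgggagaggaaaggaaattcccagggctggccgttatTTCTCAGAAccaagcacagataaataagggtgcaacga
Gbp7: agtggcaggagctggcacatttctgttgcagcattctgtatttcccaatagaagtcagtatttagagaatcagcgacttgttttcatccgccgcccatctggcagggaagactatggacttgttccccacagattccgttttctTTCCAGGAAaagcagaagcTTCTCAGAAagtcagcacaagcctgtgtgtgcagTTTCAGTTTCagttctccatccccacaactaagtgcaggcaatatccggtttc
Gbp3: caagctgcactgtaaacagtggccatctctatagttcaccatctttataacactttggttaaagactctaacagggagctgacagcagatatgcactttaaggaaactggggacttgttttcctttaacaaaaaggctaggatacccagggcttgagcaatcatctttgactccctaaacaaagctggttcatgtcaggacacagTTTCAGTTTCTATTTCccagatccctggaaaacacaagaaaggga
Gbp2: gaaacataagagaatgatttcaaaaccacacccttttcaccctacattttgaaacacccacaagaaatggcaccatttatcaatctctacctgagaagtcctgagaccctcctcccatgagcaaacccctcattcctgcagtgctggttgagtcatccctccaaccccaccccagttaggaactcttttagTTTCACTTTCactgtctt
Gbp5 held GAS matches at 245 to 237 and 52 to 44 bases before its RefSeq start and an ISRE match at 165 to 156. Gbp7 held GAS matches at 106 to 98 and 87 to 79 bases before the start and an ISRE match at 53 to 44. Gbp3 held 2 overlapping ISRE matches at 45 to 36 and 39 to 30 bases, and Gbp2 held 1 at 59 to 50, inside the first exon of the GENCODE model. A second RefSeq window of Gbp3, chr3:142560106-142560355, held neither motif. Among 32851 promoter windows of the same 250 bases, 7.02% held a GAS match, 2.98% an ISRE match and 0.332% both. These are matches of letters and not measured binding. The chromosome 5 members Gbp4, Gbp6, Gbp8, Gbp9, Gbp10 and Gbp11 are named without sequence.

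Stimulation raised the whole family in WT cells within 3 h. There all 10 members were higher at 3 h than at 0 h, against 16.2% of all genes tested that were called higher, with log2 fold changes from 1.18 for Gbp9 to 5.74 for Gbp11 (edgeR's quasi-likelihood test, Benjamini-Hochberg adjusted p under 0.05 in each case). All 10 were still higher at 6 h, against 26.4% of all genes. By 24 h 6 members were higher (36.6% of all genes were called higher) and 1, Gbp9, was lower (34.8% were called lower). The median log2 fold changes of the members were 3.11, 2.48 and 1.25 at 3, 6 and 24 h, while that of all genes tested was 0.0152, 0.0189 and -0.0127. Leaving out the mouse labelled WT 1 changed no call of a member in these 3 comparisons. In bulk RNA, a change in the share of responding cells and a change in the RNA of each cell cannot be told apart.

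In Aim2-/- cells the values at 3 h against 0 h chose the family and are a description: the log2 differences ran from 1.04 for Gbp3 to 5.55 for Gbp11, with a median of 2.72, and all 3 mice at 3 h lay above all 3 at 0 h for each of the 10 members. Of all genes 16.1% were called higher there, and nothing is read from the members' count beside it. At 6 h 9 members were higher, beside 28.5% of all genes, and Gbp9 was the member that missed the threshold. At 24 h 6 were higher, beside 36.8%, and Gbp9 was again lower, beside 33.5%. The medians were 2.00 at 6 h and 1.03 at 24 h, and those of all genes tested 0.0776 and 0.0296. The WT and Aim2-/- comparisons use different mice, and their difference was tested as an interaction.

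**Figure D1:**
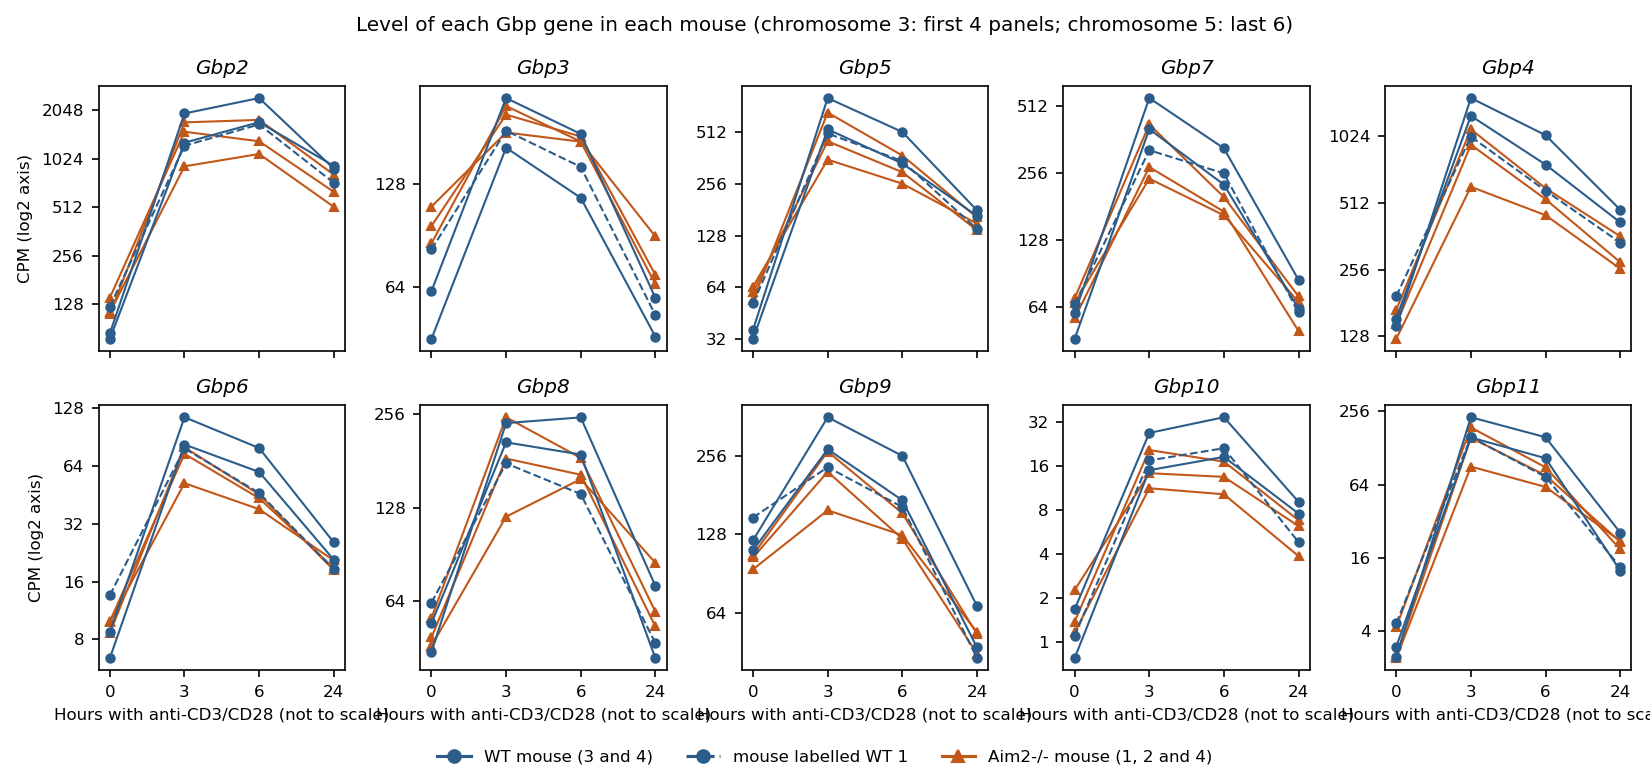
Level of each Gbp gene in CPM (log axis) against hours of stimulation (time points are evenly spaced, not to scale), with 1 line per mouse, circles for WT, triangles for Aim2-/- and a dashed line for the mouse labelled WT 1. All 10 genes climb between 0 and 3 h in all 6 mice, and Gbp9 ends below its 0 h level in all 6.

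Gbp2 and Gbp5 are the members linked to AIM2 activation in infected macrophages. Gbp2 (ENSMUSG00000028270) measured 123, 78.0 and 84.3 CPM in WT mice 1, 3 and 4 at 0 h, 1237, 1291 and 1962 CPM at 3 h, 1677, 1732 and 2447 CPM at 6 h and 728, 928 and 891 CPM at 24 h. In Aim2-/- mice 1, 2 and 4 it measured 114, 111 and 140.4 CPM at 0 h, 921, 1727 and 1511 CPM at 3 h, 1099, 1790 and 1318 CPM at 6 h and 516, 818 and 639.6 CPM at 24 h. Every stimulated library lay far above the 0 h libraries, and the genotypes overlapped at all 4 times. The rise of Gbp2 in WT cells was 15.7-fold at 3 h (log2 3.97, SE 0.279, edgeR adjusted p = 1.97e-09), 20.5-fold at 6 h (log2 4.36, SE 0.284, adjusted p = 1.63e-10) and 8.91-fold at 24 h (adjusted p = 1.04e-09). In Aim2-/- cells the log2 change was 3.51 at 3 h and 3.52 at 6 h (SE 0.273, edgeR adjusted p = 2.75e-09), and by 24 h it was 2.43 (SE 0.261, adjusted p = 4.18e-08). Gbp5 (ENSMUSG00000105504) measured 51.7, 32.2 and 36.4 CPM in WT mice at 0 h, 503, 532 and 807 CPM at 3 h, 348, 336 and 513 CPM at 6 h and 139.8, 167 and 179.6 CPM at 24 h. The Aim2-/- mice had Gbp5 levels of 64.8, 54.0 and 60.02 CPM at 0 h, 354, 665 and 453 CPM at 3 h, 257, 374 and 299.5 CPM at 6 h and 150.3, 163 and 138 CPM at 24 h. At 0 h all 3 Aim2-/- mice lay above all 3 WT mice for Gbp5, and after stimulation the groups overlapped. Gbp5 rose 15.3-fold in WT cells at 3 h (log2 3.94, SE 0.255, edgeR adjusted p = 7.29e-10) and stayed 4.04-fold higher at 24 h (adjusted p = 1.48e-07). In Aim2-/- cells its log2 change was 3.04 at 3 h, 2.38 at 6 h (SE 0.239, edgeR adjusted p = 7.24e-08) and 1.34 at 24 h (SE 0.232, adjusted p = 3.04e-05).

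Gbp11, Gbp10 and Gbp6, neighbours at one end of the chromosome 5 cluster, had the lowest levels per kb of exon at 0 h. Gbp11 measured 4.65, 3.00 and 2.48 CPM in WT mice at 0 h, 157, 156 and 229 CPM at 3 h, 74.1, 105 and 157 CPM at 6 h and 13.5, 12.6 and 25.9 CPM at 24 h. Aim2-/- cells carried Gbp11 at 2.42, 4.33 and 2.51 CPM at 0 h, 89.95, 188 and 155 CPM at 3 h, 61.3, 88.8 and 76.3 CPM at 6 h and 22.1, 18.9 and 21.8 CPM at 24 h. This was the steepest climb of the 10 members in both genotypes: 53.3-fold in WT cells at 3 h (log2 5.74, SE 0.384, edgeR adjusted p = 1.08e-09), and a log2 difference of 5.55 in Aim2-/- cells at 3 h, the value that chose the family. At 6 h Gbp11 in Aim2-/- cells was 4.61 log2 units above 0 h (SE 0.374, edgeR adjusted p = 4.92e-09), and at 24 h 2.76 above (SE 0.368, adjusted p = 9.65e-07). Both comparisons share the 0 h libraries of the value that chose the family, so these p-values are not independent of that choice. Gbp10 measured 1.10, 0.775 and 1.67 CPM in WT mice at 0 h, 17.4, 15.0 and 26.9 CPM at 3 h, 21.1, 18.4 and 34.5 CPM at 6 h and 4.81, 7.55 and 9.08 CPM at 24 h. For Gbp10 the Aim2-/- mice gave 1.16, 1.38 and 2.26 CPM at 0 h, 11.2, 20.5 and 14.3 CPM at 3 h, 10.2, 17.1 and 13.5 CPM at 6 h and 3.86, 6.80 and 6.20 CPM at 24 h. At 6 h every WT mouse lay above every Aim2-/- mouse for Gbp10, and at the other times the groups overlapped. Its rise in WT cells was 16.6-fold at 3 h and 20.8-fold at 6 h (log2 4.38, SE 0.392, edgeR adjusted p = 1.02e-08), and in Aim2-/- cells the log2 change at 6 h was 3.08 (SE 0.371, adjusted p = 7.5e-07). Gbp6, which shares most of Gbp10's sequence, moved over a smaller range. It measured 6.41 to 13.6 CPM in WT mice at 0 h, 78.9 to 115 CPM at 3 h, 46.3 to 79.3 CPM at 6 h and 18.5 to 25.6 CPM at 24 h, and in Aim2-/- mice 8.66 to 9.94, 52.0 to 79.9, 38.1 to 45.5 and 18.4 to 20.6 CPM at the same times.

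Gbp4 and Gbp7 rose by much the same factor in WT cells at 3 h. Gbp4 (chr5:105115767-105139586) measured 194, 154 and 142 CPM in WT mice at 0 h, 1020, 1266 and 1524 CPM at 3 h, 582, 763 and 1036 CPM at 6 h and 339, 418 and 478 CPM at 24 h. The corresponding Gbp4 values of Aim2-/- mice were 125, 169 and 145 CPM at 0 h, 605, 1100 and 938 CPM at 3 h, 451, 597 and 532 CPM at 6 h and 259, 362 and 277 CPM at 24 h. The Aim2-/- mice lay mostly below the WT mice after stimulation. At 3, 6 and 24 h 1 Aim2-/- mouse, number 2, lay above the lowest WT mouse, the one labelled WT 1. Every Aim2-/- mouse lay below the other WT mice at these times. Gbp4 rose 7.78-fold in WT cells at 3 h (log2 2.96, SE 0.240, edgeR adjusted p = 1.28e-08) and was 2.52-fold higher at 24 h (adjusted p = 2.26e-05). Gbp7 (chr3:142530342-142550149), which acts in host defence against intracellular pathogens, measured 65.7, 45.9 and 59.9 CPM in WT mice at 0 h, 324, 404 and 557 CPM at 3 h, 255, 227 and 331 CPM at 6 h and 60.5, 62.8 and 84.6 CPM at 24 h. In Aim2-/- mice Gbp7 measured 66.7, 69.9 and 56.8 CPM at 0 h, 242, 424 and 272 CPM at 3 h, 165, 199.6 and 172 CPM at 6 h and 67.2, 71.3 and 49.8 CPM at 24 h. At 6 h the genotypes did not overlap for Gbp7. Its rise was 7.49-fold in WT cells at 3 h (log2 2.90, SE 0.233, edgeR adjusted p = 1.11e-08), and by 24 h the log2 difference from 0 h was 0.28 in WT cells (adjusted p = 0.266) and -0.04 in Aim2-/- cells (adjusted p = 0.883).

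Gbp3, Gbp8 and Gbp9 had the smallest changes at 3 h. Gbp3 measured 82.4, 45.2 and 62.3 CPM in WT mice at 0 h, 183, 163 and 228 CPM at 3 h, 144, 117 and 179 CPM at 6 h and 53.1, 45.9 and 59.6 CPM at 24 h. In Aim2-/- mice Gbp3 measured 109.9, 85.9 and 96.5 CPM at 0 h, 181, 216 and 204 CPM at 3 h, 170.0, 170.1 and 176 CPM at 6 h and 89.97, 65.3 and 69.5 CPM at 24 h. All 3 Aim2-/- mice lay above all 3 WT mice at 0 and at 24 h. The rise of Gbp3 at 3 h was 3.02-fold in WT cells (log2 1.60, SE 0.188, edgeR adjusted p = 1.47e-06), and its 24 h level differed from 0 h by a log2 of -0.26 in WT cells (adjusted p = 0.217) and -0.38 in Aim2-/- cells (adjusted p = 0.0730). With mouse as a block the latter passed the test (log2 -0.38, edgeR adjusted p = 0.0109), and without WT 3 the difference of Gbp3 in WT cells also passed (log2 -0.42, adjusted p = 0.0414). Leaving out WT 3 or WT 4, which enter through the shared spread, brought the 24 h difference of Gbp3 in Aim2-/- cells past the threshold as well (adjusted p = 0.0155 and 0.0437). Gbp8 ranged from 41.9 to 250.4 CPM over the WT libraries, and it rose 3.88-fold at 3 h (edgeR adjusted p = 5.38e-06) and differed from its 0 h level by a log2 of -0.01 at 24 h (adjusted p = 0.976). Gbp9 was the member called lower than at the start in both genotypes. It measured 149, 111 and 122 CPM in WT mice at 0 h, 232, 272 and 360.3 CPM at 3 h, 163, 173 and 256 CPM at 6 h and 43.0, 47.2 and 68.1 CPM at 24 h. The Gbp9 values of Aim2-/- mice were 94.1, 107 and 104 CPM at 0 h, 158, 266 and 223 CPM at 3 h, 127, 154 and 123 CPM at 6 h and 54.0, 53.3 and 44.7 CPM at 24 h. Every mouse had a lower level of Gbp9 at 24 h than at 0 h, with a log2 change of -1.27 in WT cells (SE 0.210, edgeR adjusted p = 1.57e-05) and -1.01 in Aim2-/- cells (SE 0.210, adjusted p = 0.000228). Its change at 6 h was small: log2 0.63 in WT cells (edgeR adjusted p = 0.0134), which missed the threshold without WT 3 (0.59, adjusted p = 0.0927) or without WT 4 (0.35, adjusted p = 0.180), and 0.41 in Aim2-/- cells (adjusted p = 0.107, or 0.0224 with mouse as a block).

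**Figure D2:**
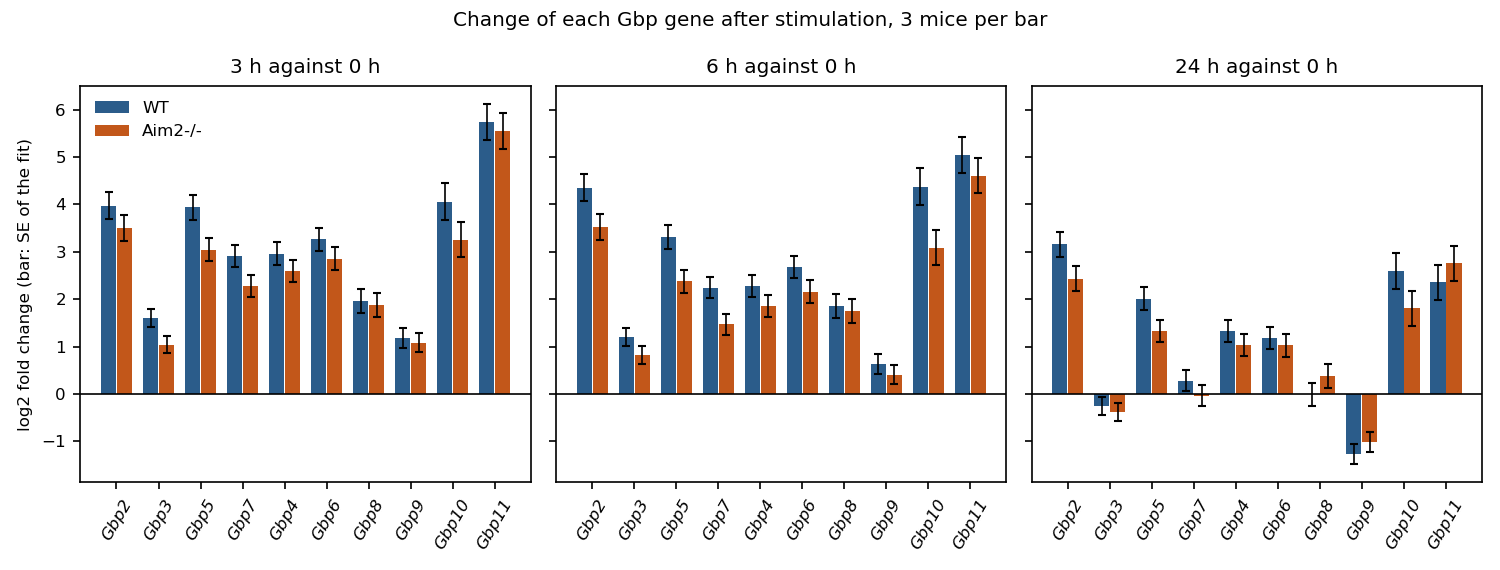
Log2 fold change of each Gbp gene at 3, 6 and 24 h against 0 h in WT and in Aim2-/- cells, with bars of 1 standard error of the edgeR fit (3 mice per genotype). Gbp11 stands highest at 3 h, at 5.74 in WT cells, and Gbp9 lies below 0 at 24 h, at -1.27 in WT and -1.01 in Aim2-/- cells.

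The members kept different time courses. The highest level fell at 3 h in all 6 mice for 7 members: Gbp3, Gbp4, Gbp5, Gbp6, Gbp7, Gbp9 and Gbp11. Gbp2 and Gbp10 were highest at 6 h in all 3 WT mice. In Aim2-/- mice Gbp2 was highest at 6 h in 2 mice and at 3 h in 1, and Gbp10 at 3 h in all 3. Gbp8 was highest at 3 h in 2 mice and at 6 h in 1 mouse of each genotype. What was left at 24 h also differed: Gbp2 stood at 36.4% to 53.6% of its highest level in WT mice and at 42.3% to 47.0% in Aim2-/- mice, while Gbp11 stood at 8.10% to 11.3% and 10% to 24.6%. Gbp9 stood at 17.4% to 18.9% in WT mice and 20% to 34.1% in Aim2-/- mice, and Gbp7 at 15.2% to 18.6% and 16.8% to 27.8%. The ranges of the genotypes did not overlap for Gbp9, nor for Gbp3, at 26.1% to 29.0% in WT and 30.2% to 49.8% in Aim2-/- mice. They overlapped for the other members, and for Gbp2 one lay inside the other. These shares were not tested and were not computed for all genes, so nothing is read from the ranges without overlap.

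**Figure D3:**
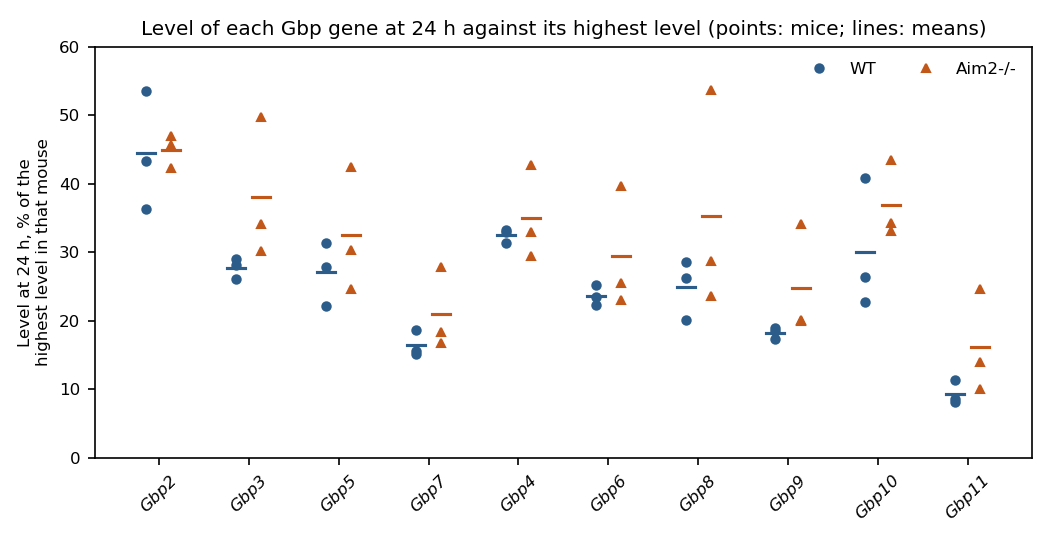
Level of each Gbp gene at 24 h as a percentage of the highest level of the same mouse, with 1 point per mouse and a line at the mean of each genotype. In WT mice Gbp2 stands at 36.4% to 53.6% and Gbp11 at 8.10% to 11.3%.

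Levels can be compared between genes only per length, here as CPM per kb of merged exon. Gbp2 stood first and Gbp10 last of the 10 members in each of the 8 groups. In WT cells at 0 h Gbp2 measured 37.9 ± 9.77 CPM per kb (SD, n = 3), followed by Gbp9 at 24.6, Gbp4 at 21.8, Gbp3 at 19.4, Gbp8 at 15.6, Gbp7 at 10.2, Gbp5 at 6.04, Gbp6 at 1.61, Gbp11 at 1.25 and Gbp10 at 0.305 CPM per kb. Within this order the mice overlapped between Gbp9 and Gbp4, Gbp4 and Gbp3, Gbp3 and Gbp8, and Gbp6 and Gbp11. At 3 h Gbp2 measured 594.9 ± 160.5 CPM per kb, Gbp4 169.5, Gbp5 92.5, Gbp7 76.3, Gbp11 67.1, Gbp8 60.6, Gbp3 58.6, Gbp9 55.7, Gbp6 15.5 and Gbp10 5.10. Gbp11 had thus passed from the ninth to the fifth place, although Gbp5, Gbp7, Gbp11, Gbp8, Gbp3 and Gbp9 each overlapped with the next in this order at 3 h. Gbp4 was the second at 3, 6 and 24 h in both genotypes. Gbp2 and Gbp4 together made up 37.7% to 43.7% of the summed CPM of the members at 0 h, 55.8% to 59.8% at 3 h and 61.1% to 76.8% at 24 h. The same full counts were also divided by only the exon bases that no other gene model overlaps, which are 53.7% of those of Gbp10 and 71.0% of those of Gbp6. In WT cells this gave 0.568 CPM per kb at 0 h and 9.50 at 3 h for Gbp10, and 2.27 and 21.8 for Gbp6. That length fits the counts only if reads on the overlapped bases went uncounted, which is not known. On that length Gbp2 stayed first and Gbp10 last in each of the 8 groups, and the order changed only in Aim2-/- cells at 3 h, where Gbp7 and Gbp3 exchanged the fourth and the fifth place. That length removes overlapping gene models but not sequence shared between copies. Only 16.2% of the 51-base stretches of Gbp10 and 29.5% of those of Gbp6 were found in no other gene. If reads with several matches went uncounted, the levels of both are too low, so their places among the members are uncertain. Exon lengths take every annotated isoform together, so the order rests on the gene models as well as on the counts.

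**Figure D4:**
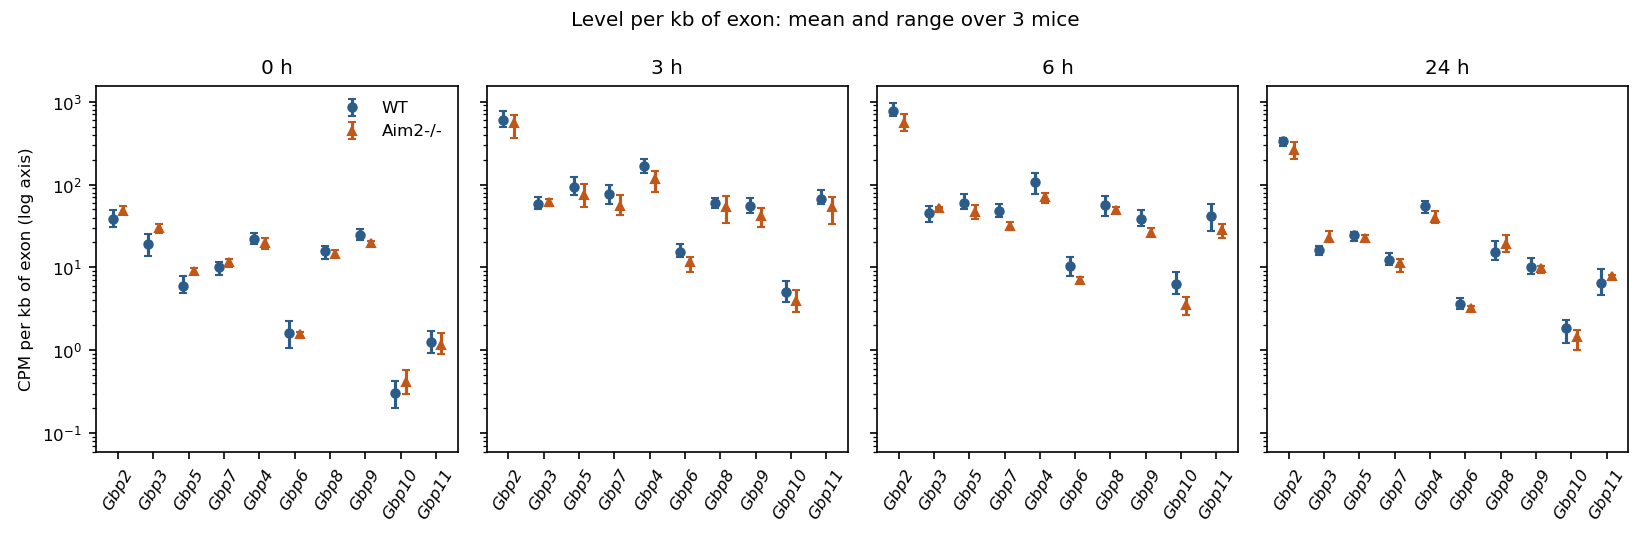
Level of each Gbp gene in CPM per kb of merged exon (log axis) in the 8 groups, with a point at the mean of each group and bars over the range of its 3 mice. Gbp2 is the highest and Gbp10 the lowest in each group, at 594.9 and 5.10 CPM per kb on average in WT cells at 3 h.

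Between genotypes no member was called at any time by edgeR with all mice, while 5.23%, 0.294%, 15.8% and 0.666% of all genes were called at 0, 3, 6 and 24 h. Whether the levels of the genotypes were alike was not tested. At an unadjusted p under 0.05 edgeR's quasi-likelihood test had 2, 2, 5 and 1 of the 10 members at the 4 times, against 23.8%, 15.3%, 34.1% and 20.5% of all genes. DESeq2 called 1, 0, 5 and 0 members, against 10.2%, 2%, 21.6% and 5.14% of all genes. By limma-voom 1, 0, 1 and 0 members were called, against 5.23%, 0.411%, 16.3% and 0.0326% of all genes. The 3 Aim2-/- and the 3 WT mice did not overlap for 3 members at 0 h (28.5% of all genes), for 0 at 3 h (15.1%), for 4 at 6 h (35.6%) and for 1 at 24 h (21.3%). These counts were close to the share of all genes at 0 and 6 h and below it at 3 and 24 h. The median log2 difference of the members, Aim2-/- minus WT, was 0.0773, -0.344, -0.545 and -0.125 at the 4 times, beside medians of -0.00564, 0.0018, 0.0506 and 0.00596 over all genes tested. At 3 h and again at 6 h, 9 of the 10 members were lower in Aim2-/- cells, and the exception was Gbp3.

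The 6 h differences were the ones nearest to the threshold. Gbp7 was 1.52-fold lower in Aim2-/- cells (log2 -0.60, SE 0.217, edgeR adjusted p = 0.0610), Gbp9 1.46-fold lower (-0.55, SE 0.205, adjusted p = 0.0689), Gbp10 1.81-fold lower (-0.86, SE 0.322, adjusted p = 0.0706) and Gbp6 1.46-fold lower (-0.54, SE 0.218, adjusted p = 0.0878), and these 4 were the members without overlap. Gbp4 was 1.51-fold lower with overlap (log2 -0.59, SE 0.224, edgeR adjusted p = 0.0721). Among the WT mice this overlap involved only the mouse labelled WT 1. The remaining members had log2 differences of -0.57 for Gbp11, -0.48 for Gbp2, -0.36 for Gbp5, -0.20 for Gbp8 and 0.23 for Gbp3. These 6 h calls depended on the mice and on the tool. Without the mouse labelled WT 1, Gbp4 (-0.78, edgeR adjusted p = 0.0325), Gbp6 (-0.72, adjusted p = 0.0246) and Gbp9 (-0.67, adjusted p = 0.0450) passed, 3 of 10 members against 11.4% of all genes. Without Aim2-/- 2, Gbp4 (adjusted p = 0.0412), Gbp7 (0.0312), Gbp9 (0.0471) and Gbp10 (0.0396) passed in edgeR, 4 of 10 members against 25.7% of all genes. Leaving out any of the other 4 mice left 0 members called. At 0 h the difference nearest to the threshold was Gbp3, higher in Aim2-/- cells by a log2 of 0.62 (SE 0.185, edgeR adjusted p = 0.0536), which passed without the mouse labelled WT 1 (0.86, adjusted p = 0.0223) and without Aim2-/- 2 (0.70, adjusted p = 0.0379). Gbp5 was higher by 0.57 at 0 h (adjusted p = 0.140), and Gbp3 was higher by 0.50 at 24 h (adjusted p = 0.148). At 3 h the difference farthest from 0 was that of Gbp4, at -0.53 (edgeR adjusted p = 0.271).

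**Figure D5:**
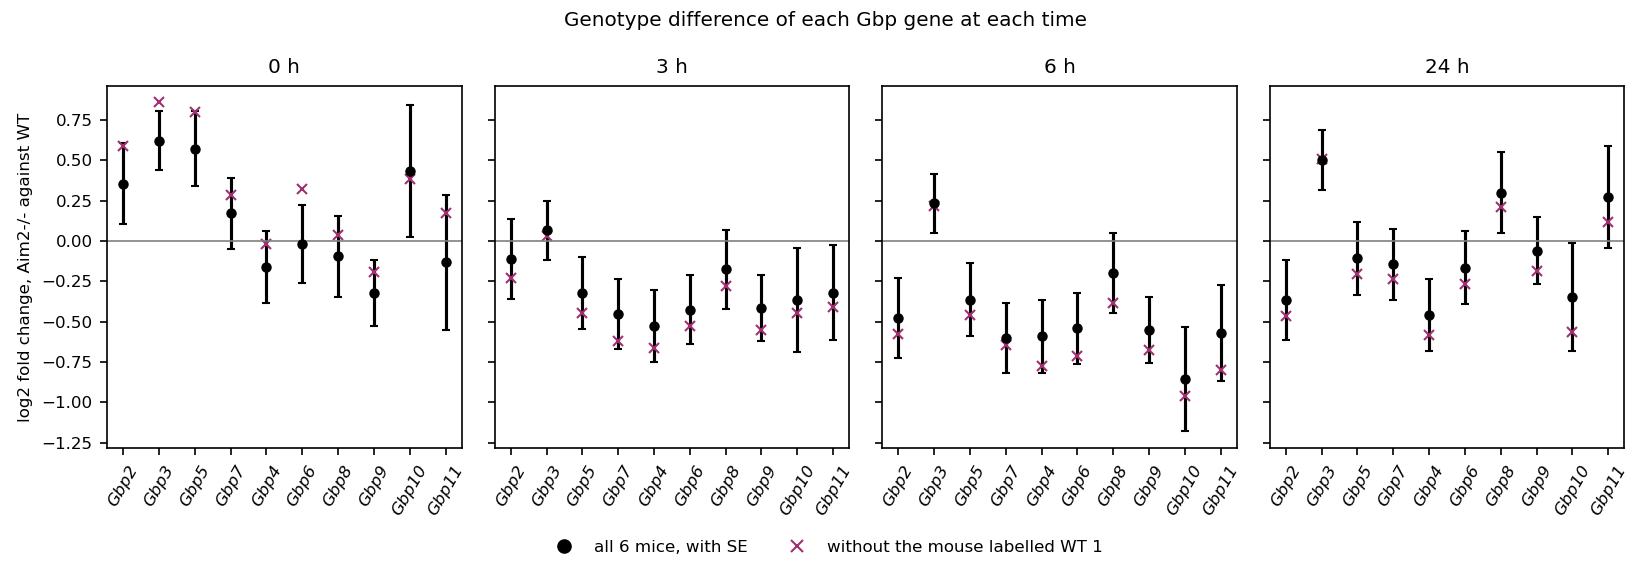
Log2 difference of each Gbp gene between Aim2-/- and WT cells at 0, 3, 6 and 24 h, with black points and bars of 1 standard error for all 6 mice and purple crosses without the mouse labelled WT 1. At 6 h 9 of the 10 genes lie below 0, down to -0.86 for Gbp10, and none passes the threshold with all 6 mice.

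Summed markers of other blood cells were also compared between the genotypes. Their part in the Gbp differences, and in those of the gene lists below, was not tested. At 6 h the 6 B cell markers summed to 3.55 to 7.001 CPM in WT and 11.3 to 38.5 CPM in Aim2-/- libraries, the 7 myeloid markers to 22.3 to 46.3 and 56.8 to 181.3 CPM, the 5 neutrophil markers to 8.03 to 15.3 and 45.9 to 138.4 CPM, the 3 basophil markers to 7.40 to 14.2 and 64.6 to 130.3 CPM. The 3 erythroid markers summed to 5.55 to 44.4 and 17.0 to 348.9 CPM, the 4 dendritic cell markers to 3.15 to 4.04 and 4.76 to 14.6 CPM, the 3 NK cell markers to 5.85 to 10.4 and 7.39 to 12.4 CPM and the 2 CD8 T cell markers to 7.74 to 8.95 and 8.08 to 13.3 CPM. For the sums of B, myeloid, neutrophil, basophil and dendritic cell markers the genotypes did not overlap at 6 h, as was so for 35.6% of all single genes. Of single markers tested, 2 of 5 B cell, 2 of 4 neutrophil and 3 of 3 basophil markers were called higher in Aim2-/- cells at 6 h. No myeloid, dendritic cell, NK cell, CD8 T cell or erythroid marker was called at 6 h, and 15.8% of all genes were. At 0 h 2 B cell, 2 myeloid, 2 neutrophil and 3 basophil markers were called higher in Aim2-/- cells, beside 5.23% of all genes called. At 3 h and again at 24 h 1 neutrophil and 3 basophil markers were called higher, beside 0.294% and 0.666%. No other marker of these lists was called between genotypes at 0, 3 or 24 h. The defining markers Ly6g, Fcgr1 and Ebf1 were at 0 in 15, 7 and 6 of the 24 libraries. Of these, 8, 6 and 2 were WT and 7, 1 and 4 were Aim2-/- libraries. At 0 h, where Gbp3 and Gbp5 were higher in every Aim2-/- mouse, the myeloid sum was 31.5 to 52.1 CPM in WT and 99.9 to 326.2 CPM in Aim2-/- libraries.

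Whether stimulation moved the members differently in the genotypes was asked with the interaction, the log2 change in Aim2-/- cells minus that in WT cells. It lay below 0 for all 10 members at 3 h and at 6 h and for 7 at 24 h, and no member passed the test. The 3 h interaction contains the Aim2-/- values that chose the family, so its values and counts are a description and nothing is read from them. The interaction called 0 members at 3 h (0% of all genes), 0 at 6 h (0.0261%) and 0 at 24 h (0%) in edgeR. DESeq2 also called 0 members at each time (0%, 1.98% and 1.21% of all genes), and limma-voom 0 (0%, 0.0131% and 0.0131%). At an unadjusted p under 0.05 edgeR had 2, 4 and 1 of the 10 members, against 4.26%, 13.2% and 11.9% of all genes. The medians were -0.436, -0.481 and -0.224, beside 0.00357, 0.0305 and 0.0116 over all genes. At 6 h the interaction was -1.29 for Gbp10 (SE 0.521, edgeR adjusted p = 0.285), -0.93 for Gbp5 (SE 0.324, adjusted p = 0.215), -0.83 for Gbp2 (SE 0.352, adjusted p = 0.301) and -0.77 for Gbp7 (SE 0.309, adjusted p = 0.280). The 4 libraries of a mouse are paired, and with mouse as a block 3 of these members passed at 6 h: Gbp10 (-1.29, edgeR adjusted p = 0.0223), Gbp7 (-0.76, adjusted p = 0.0344) and Gbp5 (-0.93, adjusted p = 0.0440). That is 3 of 10 members, against 4.68% of all genes called with the block. Without the mouse labelled WT 1 the interactions at 6 h lay further from 0, such as -1.25 for Gbp5 and -1.03 for Gbp6 (edgeR adjusted p = 0.161 for both), and none passed.

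The mice kept a common order across the family. At 3 h WT 4 had the highest level of the 6 mice for 9 of the 10 members, and at 6 h for all 10. Aim2-/- 1 had the lowest level for 9 members at 3 h and for 7 at 6 h. At 0 h this order was not there: WT 4 was the highest for 0 members and the mouse labelled WT 1 for 5. The summed level of the members at 3 h was 3930, 4389 and 6049 CPM in WT mice 1, 3 and 4 and 2734, 4872 and 4094 CPM in Aim2-/- mice 1, 2 and 4. At 6 h the sums were 3452, 3722 and 5283 CPM and 2536, 3600 and 2939 CPM. Aim2-/- 2 lay above the mouse labelled WT 1 at both times, and at 3 h also above WT 3, so the sums of the genotypes overlapped. At 6 h the overlap was with the mouse labelled WT 1 only. Because of this common order the members cannot be counted as independent measurements.

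Over the 24 libraries the log2 CPM of the members moved together, with Pearson r between 0.342 and 0.981 (median 0.891) for the 45 pairs. The closest pairs were Gbp5 with Gbp6 and Gbp6 with Gbp11, both at 0.981, Gbp4 with Gbp6 at 0.977 and Gbp2 with Gbp10 at 0.975. The closest partners of Gbp2, Gbp5, Gbp7, Gbp8, Gbp9 and Gbp10 lay on the other chromosome, and those of Gbp3, Gbp4, Gbp6 and Gbp11 on the same one. Gbp9 was the farthest from the others, down to 0.342 with Gbp2. Among 12302 genes outside the 10 members with a mean of at least 1 CPM, the 8 most like the mean profile of the members were Cd274 (r = 0.981), Parp9 (0.978), Tgtp1 (0.974), 5830468F06Rik (0.968), Usp18 (0.967), Rnf19b (0.965), Zbp1 (0.957) and Oas2 (0.954). These r values are descriptions over 24 libraries that share 6 mice and 4 time points.

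The interferon pathway around the family moved in several directions. Of 19 genes from ligand to target, 13 were higher and 4 lower in WT cells at 3 h, 12 and 4 at 6 h, and 6 and 11 at 24 h. Of all 15325 genes tested, 2476 were higher and 2516 lower at 3 h, 4039 and 3798 at 6 h, and 5607 and 5339 at 24 h. In Aim2-/- cells the counts were 11 and 5 at 3 h, 11 and 5 at 6 h, and 5 and 10 at 24 h. Those of all genes there were 2461 and 2237, 4361 and 3479, and 5647 and 5131. Whether the list differed from all genes was not tested. The median log2 change of the list in WT cells was 0.964 at 3 h and -0.59 at 24 h, so its median, unlike that of the Gbp members, lay below 0 at the end. The ligand Ifng measured 16.0, 9.81 and 15.9 CPM in WT mice at 0 h and 69.2, 34.2 and 42.0 CPM at 3 h, and reached 103, 63.3 and 121 CPM at 24 h. Ifng was thus highest or near its highest level at 24 h, when most Gbp genes had come down. In Aim2-/- mice Ifng measured 31.8, 16.5 and 32.0 CPM at 0 h, 63.5, 58.7 and 175 CPM at 3 h and 434, 169.5 and 345 CPM at 24 h. All 3 Aim2-/- mice lay above all 3 WT mice at 0 and 24 h for Ifng, with log2 differences of 0.95 (edgeR adjusted p = 0.212) and 1.73 (adjusted p = 0.0605). Irf1, an interferon-induced transcription factor, rose in WT cells by 1.80 at 3 h (SE 0.147, edgeR adjusted p = 1.29e-08) and differed by 0.06 at 24 h (adjusted p = 0.715). Socs1, the feedback inhibitor of JAK kinases, rose by 4.28, the chemokine gene Cxcl9 by 4.19 and the transcription factor gene Irf8 by 4.20 at 3 h in WT cells.

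Between genotypes some of the 19 pathway genes were called, each higher in Aim2-/- cells: 3 at 0 h (among them Socs1 by 0.88 and Irf8 by 0.95), 1 at 3 h (Cxcl9), 2 at 6 h (Cxcl9 and Tyk2) and 2 at 24 h (Cxcl9 and Cxcl10), and 0 were lower. Of all genes 5.23%, 0.294%, 15.8% and 0.666% were called at these times, and whether the list differed from the Gbp members was not tested. The sums of myeloid, B cell and basophil markers were also higher in every Aim2-/- library than in every WT library of the same time. The part of such cells in the differences of this list and of the GTPase and inflammasome genes below was not tested. Without the mouse labelled WT 1, a check chosen after the data were seen, Irf8 at 0 h (0.76, edgeR adjusted p = 0.136), Tyk2 at 6 h (0.37, adjusted p = 0.0522) and Cxcl10 at 24 h (2.09, adjusted p = 0.0618) were no longer called. Jak2, a kinase of the interferon receptors, was then called higher at 0 h (0.64, edgeR adjusted p = 0.0203) and Irf1 lower at 3 h (-0.60, adjusted p = 0.0185), and Cxcl9 was called at 3, 6 and 24 h as before. In WT cells 11 of the 19 genes were then higher and 3 lower at 3 h, 11 and 4 at 6 h, and 6 and 11 at 24 h. Of 15656 genes, 3514, 6840 and 10036 were called in either direction in these comparisons without that mouse. Between genotypes 904, 425, 1792 and 165 of them were called without it at 0, 3, 6 and 24 h. Cxcl9 measured 4.72 to 6.34 CPM in WT and 28.8 to 63.8 CPM in Aim2-/- mice at 3 h, a log2 difference of 2.98 (edgeR adjusted p = 0.00754). No gene of the list was called in the interaction in edgeR at any time. The 8 immunity-related GTPases, a second family of interferon-induced GTPases that act on pathogen vacuoles, also rose as a family: all 8 were higher in WT cells at 3 and 6 h and 6 at 24 h, led by Iigp1 (log2 4.29 at 3 h) and Gm12250 (4.01). Of all genes 16.2%, 26.4% and 36.6% were called higher in WT cells at 3, 6 and 24 h. In Aim2-/- cells all 8 were higher at 3 and 6 h, and 6 were higher and 1 lower at 24 h. The shares of all genes called higher there were 16.1%, 28.5% and 36.8%, and 33.5% were lower at 24 h. Between genotypes 1 was called, Iigp1 at 0 h (0.91 higher in Aim2-/- cells, edgeR adjusted p = 0.0377), and it was also called without the mouse labelled WT 1 (1.17, adjusted p = 0.0157), as then was Irgm2, lower at 3 h (-0.78, adjusted p = 0.0196). With all mice the median interactions of the list were -0.827, -0.601 and -0.458 at 3, 6 and 24 h with 0 genes called. Of the 5 inflammasome genes Aim2, Pycard, Casp1, Casp4 and Gsdmd, 1 was higher in WT cells at 3 h (Gsdmd, by 0.43), and at 24 h 1 was higher and 3 were lower, among them Casp1 by -1.42. Beside them 16.2% of all genes were called higher at 3 h, and 36.6% higher and 34.8% lower at 24 h. Between genotypes Pycard was higher in Aim2-/- cells at 6 h by 0.73 (edgeR adjusted p = 0.00484) and Gsdmd at 24 h by 0.58 (adjusted p = 0.0379). When the mouse labelled WT 1 was left out, Casp1 was called higher in Aim2-/- cells at 0, 6 and 24 h (1.01, 1.03 and 1.14, edgeR adjusted p = 0.0230, 0.0175 and 0.0382) and Casp4 at 0 and 6 h (0.84 and 0.77, adjusted p = 0.00688 and 0.0112), and Aim2 was called lower at all 4 times. The rise of Gsdmd in WT cells at 3 h was then not called (0.39, edgeR adjusted p = 0.0843). The gene Gbp2b, a family gene outside the 10 members, stayed between 0.103 and 2.85 CPM and was called once, lower in WT cells at 24 h.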

How the data were processed

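Messenger RNA of splenic CD4+ T cells was sequenced from stranded libraries in 24 libraries of 6 mice. The values are raw read counts per gene, deposited by the authors without normalization. The processing notes name STAR, GRCm38, DESeq2 and edgeR, without versions. How the counting treated strand and reads with several matches is not given in the sources used here, which makes near-identical and overlapping genes uncertain. Library totals of 19715161 to 21627018 set a floor of 3 counts, for counting error only.

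Counts were fitted with edgeR 4.0.16 in R 4.3.3 (quasi-likelihood F test, two-sided, TMM factors, filterByExpr with a minimum count of 10, 1 mean for each of the 8 groups over all 24 libraries), which tested 15325 genes. The Benjamini-Hochberg adjustment ran over all genes tested in each of 13 comparisons, and an adjusted p under 0.05 is a call. CPM use TMM-scaled totals, and log2 CPM for correlations use a prior count of 2. Standard errors come from the fit. The script was tested on simulated data. Symbols and gene models came from GENCODE for GRCm38 and promoters from RefSeq GRCm38.p6.

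Groups follow the labels. Libraries of 1 mouse come from the same animal and are paired: after removal of group means, 36 pairs of libraries from the same mouse correlated at r = 0.139 to 0.567, and 72 pairs from other mice of the genotype at -0.432 to 0.0742. The study's methods name no block, so the block was an alternative. The others were RLE size factors, library totals, DESeq2 1.42.0, limma-voom (limma 3.58.1), other filters, only the libraries compared, mouse number as a block and each mouse left out. All 10 members are named in every comparison, and of each gene list the 6 called genes at most with the largest changes, plus Ifng and Irf1; 1 further gene named by this rule is not reported here. Members and lists were chosen with earlier results of these data known.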

Additional observations from a re-analysis of the deposited data

How the results depend on the processing

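Setting aside Aim2-/- cells at 3 h, whose values chose the family, the members called between 0 h and the stimulated times differed by at most 1 between the settings run, and none of the 1820 values of single members recomputed under an alternative turned a called direction round. The counts of members called between genotypes, 0 with all mice and the filter used above, were the values that moved. At 0 h DESeq2 called 1 member, limma-voom 1, every gene with a count in place of the filter 2, a mean of at least 1 CPM 1, and leaving out 1 mouse 0 to 1. Of all genes the first 4 of these settings called 1557 of 15325, 802 of 15325, 1499 of 31367 and 899 of 12314. The 1 member was called without Aim2-/- 2 (2139 of 15631 genes) and without the mouse labelled WT 1 (904 of 15656). At 3 h every gene with a count gave 1, beside 775 of 31367 genes. At 6 h DESeq2 called 5, limma-voom 1, every gene with a count 7, a mean of at least 1 CPM 3, only the libraries compared 1, and leaving out 1 mouse 0 to 4. Of all genes the first 5 of these settings called 3311 of 15325, 2493 of 15325, 2942 of 31367, 2714 of 12314 and 979 of 13653. The 4 members without Aim2-/- 2 stand beside 4020 of 15631 genes. At 24 h every gene with a count gave 1, beside 962 of 31367 genes. The interaction at 6 h gave 2 members with every gene with a count, beside 147 of 31367 genes. Pairing the libraries by mouse as a block gave 3 there, beside 717 of 15325 genes. Elsewhere that block brought Gbp9 at 6 h and Gbp3 at 24 h in Aim2-/- cells past the threshold and changed no other call of a member. Taking the mouse number as a block over both genotypes gave 2, 4, 8 and 3 members between genotypes at 0, 3, 6 and 24 h. Of the 15325 genes 3613, 2324, 5516 and 3235 were called with it. A number names different mice in the genotypes, so this block pairs nothing. The cause of these moves was not tested.

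Scaling to library totals raised the median log2 change of all genes by 0.107 (WT, 3 h), 0.115 (Aim2-/-, 3 h) and 0.12 (Aim2-/-, 6 h). Genes called higher and lower were then 3357 and 1815 in place of 2476 and 2516 in WT cells at 3 h, 3455 and 1529 in place of 2461 and 2237 in Aim2-/- cells at 3 h, and 12 and 6 in place of 4 and 0 for the interaction at 6 h. At 3 h the 10 members stayed called under that scaling in WT cells. With 3 mice a group, the members' differences between genotypes were close to the spread between mice, which limits what can be called, and counts as low as 15 limit Gbp10 at 0 h.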
